A study of Caenorhabditis elegans with 4 samples.

Results

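The genes described here encode complex B of intraflagellar transport (IFT-B), the protein train that builds cilia, and they were followed in dissected adult gonads of *C. elegans* with and without the H3.3K27M oncohistone. A list of 10 IFT-B genes was used: *che-2*, *che-13*, *dyf-1*, *dyf-3*, *dyf-6*, *dyf-11*, *ift-74*, *ift-81*, *osm-5* and *osm-6*. Of these, 8 were found by symbol among the 15286 genes of the count table, and all 8 were among the 15261 genes with at least 1 count that were tested. *che-2* and *osm-5*, the worm genes for IFT80 and IFT88, were not analysed here. The list was chosen by results of this same contrast, after *dyf-3* and *ift-74* had been seen high in the mutant, so the differences between mutant and wild type are given as a description and not as a test of the list.

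Polyadenylated RNA was sequenced in 4 libraries, 2 from wild-type worms (strain N2) and 2 from worms with the lysine-to-methionine change in the endogenous histone H3.3 gene *his-72* (genotype his-72(uge40[K27M]) III, strain FAS58), all raised at 25 °C. The sample titles give the mutant another strain number, FAS43, and the extraction text describes embryos and larvae grown at another temperature, while the source label and the methods give adult gonads. A count per gene cannot show the codon change itself, since the mutant allele is transcribed from the same locus. Total counts ran from 28298609 to 32957429 per library, and between 13116 and 14726 genes had at least 1 count, the lowest number being that of mutant replicate 1. The 12 germline markers together stood at 11834 to 19595 CPM (counts scaled to library size) in every library, which matches the gonad label. In bulk RNA, fewer cells of a type and less RNA per cell cannot be told apart.

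Cilia are built and maintained by trains that run along the axoneme. Complex B, which has a core and a peripheral arm, carries cargo such as tubulin to the tip with kinesin motors, and complex A returns with dynein. In *C. elegans* cilia are found on sensory neurons only, neither germ cells nor the amoeboid sperm carry them, and many IFT genes were named for mutants that fail to take up dye into these neurons (*dyf*), avoid high osmolarity (*osm*) or follow chemicals (*che*). Ciliary genes in worms are switched on by DAF-19, a transcription factor of the RFX family.

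In wild-type gonads all 8 IFT-B genes were weakly detected, and in the mutant a few of them stood far higher while others did not. A gene was called where edgeR's quasi-likelihood test over all genes gave an adjusted p (Benjamini-Hochberg) under 0.05 with more than a 2-fold difference. By this measure *dyf-3*, *ift-74* and *dyf-1* were called higher, 3 of 8, where 4.43% of all tested genes were called higher. None was called lower (0 of 8, also 0 at an unadjusted p under 0.05 and 0 with DESeq2), where 1.46% of all tested genes were. *dyf-11* had no adjusted p with DESeq2. Of the 6504 tested genes that, like most of the list, were under 1 CPM in wild type, 0 were called lower in edgeR's test. A lower call in that test was thus hardly open to most of the list. At an unadjusted p under 0.05, 12.3% of all tested genes were higher and 12.4% lower, and with DESeq2 8.05% were called higher and 3.42% lower. Both mutant libraries lay above both wild-type libraries for 4 of 8 genes, *dyf-3*, *ift-74*, *dyf-1* and *che-13*, where this held for 24.1% of all tested genes. *dyf-11*, with only 0 and 3 mutant counts, lay below both wild-type libraries in both mutant libraries, where this held for 32.7% of all tested genes. *dyf-6*, *ift-81* and *osm-6* overlapped between the strains. Since the genes were selected on this contrast, nothing is read from these shares. The median log2 fold change of the 8 genes was 2.09, and that of all tested genes was -0.11.

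**Figure D1:**
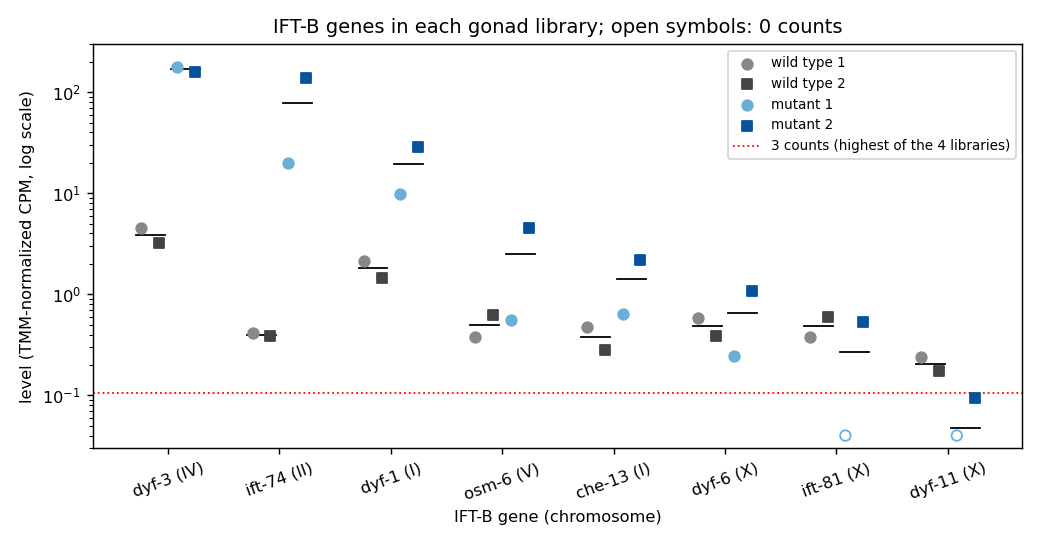
Level of each IFT-B gene in each of the 4 gonad libraries, in TMM-normalized CPM on a log axis, with the chromosome in brackets; short bars are the means of 2 libraries, the dotted line is the level of 3 counts, and open symbols stand for 0 counts. The mutant symbols of dyf-3, ift-74 and dyf-1 stand well above the wild-type ones, and those of dyf-6 straddle them. For osm-6, mutant replicate 1 lies between the wild-type symbols and mutant replicate 2 above them. ift-81 and dyf-11 have 0 counts in mutant replicate 1.

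*dyf-3* encodes the worm CLUAP1, a coiled-coil protein of the peripheral arm, and lies on chromosome IV (3396581 to 3399231, minus strand, WBcel235, 9 exons). Wild-type replicates 1 and 2 held 132 and 93 of its counts, and mutant replicates 1 and 2 held 5840 and 4980. As TMM-normalized CPM these were 4.51 and 3.24 against 178.8 and 156.8. Both mutant libraries were thus high to a similar degree, with no overlap between strains. The wild-type mean was 3.87 ± 0.894 CPM (SD, n = 2) and the mutant mean 167.8 ± 15.6 CPM (SD, n = 2). The log2 fold change of 5.43 (SE 0.25) ranked 180 of 15261. Its place within a library moved accordingly: it stood above 57.2% and 54.8% of the tested genes in the wild-type libraries, and above 92.1% and 92.0% in the mutant libraries. The log2 fold change was 5.22 without wild-type replicate 2 and 5.39 without mutant replicate 1, and in neither case was the gene called. In edgeR's fits to those sets of 3 libraries 0 genes in all were called, with 1692 and 3760 at an unadjusted p under 0.05.

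*ift-74* encodes a core subunit that pairs with IFT81 to bind tubulin, and lies on chromosome II (6680024 to 6683544, plus strand, 9 exons). In wild type it had only 12 and 11 counts, not far above the floor of 3 counts at which a gene is treated as undetected, whereas mutant replicates 1 and 2 had 648 and 4372. Its wild-type CPM were 0.410 and 0.383, and its mutant CPM 19.8 and 137.7. The wild-type libraries were close to each other, while the mutant libraries, though both high, differed from each other by 6.94 times (95% counting interval 6.39 to 7.55). The log2 fold change of the 2 strains was 7.62 (SE 1.28), the largest of the list and rank 20 of 15261. That value rests in part on mutant replicate 2: without it the log2 fold change was 5.63, and without mutant replicate 1 it was 8.48. It was called without mutant replicate 2, and was not called without any one of the other libraries.

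*dyf-1* encodes IFT70, a core subunit needed in worms for the kinesin OSM-3 to join the train, and lies on chromosome I (4989548 to 4994675, minus strand, 11 exons). Its counts were 63 and 42 in the wild-type libraries, and mutant replicates 1 and 2 gave 322 and 920. In CPM these were 2.15 and 1.46 against 9.86 and 29.0. Both mutant libraries were above both wild-type libraries, the second further than the first. The log2 fold change was 3.42 (SE 0.63), with values of 2.44 without mutant replicate 2 and 4.05 without mutant replicate 1, and the gene was not called when any one library was left out (3.77 without wild-type replicate 1 and 3.17 without wild-type replicate 2).

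The next autosomal genes were counted in few reads. *osm-6* encodes IFT52, a core subunit, on chromosome V (11924621 to 11927446, minus strand), with 11 and 18 wild-type counts and 18 and 143 mutant counts. Only mutant replicate 2 was above wild type, and mutant replicate 1 lay within the wild-type range, with CPM of 0.375 and 0.627 against 0.551 and 4.50. The log2 fold change was 2.32 (SE 1.15), which fell to 0.14 without mutant replicate 2. *che-13* encodes IFT57, a peripheral subunit, on chromosome I (10506998 to 10515586, minus strand), with 14 and 8 wild-type counts and 21 and 69 mutant counts. Both mutant values, 0.643 and 2.17 CPM, exceeded those of wild type, 0.478 and 0.279 CPM, but the log2 fold change of 1.87 (SE 0.94) did not pass the test, and it was 0.76 without mutant replicate 2.

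The 3 tested genes on chromosome X behaved otherwise. *dyf-6* encodes IFT46, a core subunit that binds IFT52 (10379693 to 10386508, minus strand), with 17 and 11 wild-type counts against 8 and 34 mutant counts. The mutant libraries fell on either side of wild type, and the log2 fold change was 0.43 (SE 0.94), or -0.97 without mutant replicate 2. *ift-81* encodes the partner of IFT74 (5298561 to 5306542, plus strand, 19 exons), with 11 and 17 wild-type counts, 0 in mutant replicate 1 and 17 in mutant replicate 2. Mutant replicate 2 was thus at the wild-type level. Mutant replicate 1 was 5.26-fold lower if its 0 counts are set to the floor of 3 counts. The counting interval of that library's ratio to wild type reached up to 0.250. The fitted log2 fold change of -0.86 (SE 1.21) turned to 0.20 without mutant replicate 1.

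*dyf-11* encodes IFT54, a peripheral subunit that in vertebrates is known to bind microtubules (763752 to 766739, plus strand), and was the least detected of the 8. The wild-type libraries had 7 and 5 counts of it, with 0 in mutant replicate 1 and 3 in mutant replicate 2. Both mutant libraries were at or under the floor. Mutant replicate 1 was 2.25-fold lower than wild type if its 0 counts are set to that floor. The counting interval of its ratio reached up to 0.639. Mutant replicate 2 stood at a ratio of 0.456 to wild type with a counting interval of 0.083 to 1.69. A difference was thus not detectable in that second library at this depth.

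Because the mutant libraries were to be compared separately, each was also set against the mean of the wild-type libraries, with exact 95% intervals that cover counting error only. For *dyf-3* the ratio was 46.1 (40.3 to 52.9) in mutant replicate 1 and 40.4 (35.4 to 46.4) in mutant replicate 2. For *ift-74* it was 50.0 (33 to 79.5) and 347.1 (230.996 to 548.1), and for *dyf-1* 5.45 (4.36 to 6.85) and 16 (13.1 to 19.8). In mutant replicate 1 these were the only 3 genes of the list whose interval lay above 1. In mutant replicate 2 the ratio was also above 1 for *osm-6*, at 9.0 (6.01 to 13.9), for *che-13*, at 5.73 (3.50 to 9.72), and for *dyf-6*, at 2.22 (1.30 to 3.80), while *ift-81*, at 1.11 (0.569 to 2.10), could not be told from wild type. In mutant replicate 1 the intervals of *osm-6*, 1.10 (0.576 to 2.05), *che-13*, 1.70 (0.887 to 3.23), and *dyf-6*, 0.507 (0.200 to 1.14), all included 1. The median log2 ratio over the list was 0.45 in mutant replicate 1 and 2.84 in mutant replicate 2.

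**Figure D2:**
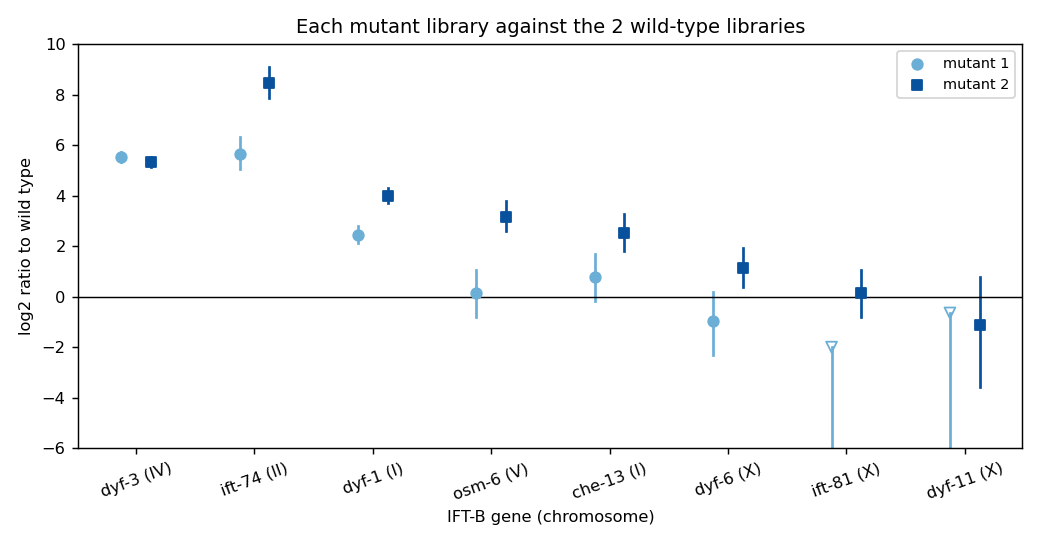
Log2 ratio of each mutant library to the mean of the 2 wild-type libraries for each IFT-B gene, with exact 95% counting intervals as bars; open triangles mark genes with 0 counts, drawn at the upper end of their interval. The ratios of dyf-3 nearly coincide, while those of ift-74, dyf-1, osm-6 and che-13 are higher in mutant replicate 2, and the X-linked genes sit near or below 0 in mutant replicate 1.

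Mutant replicate 2 was the higher of the mutant libraries for 7 of the 8 genes, and *dyf-3* was the exception, 1.14-fold lower in that library (counting interval 1.10 to 1.18). The gap was 8.17 times for *osm-6* (4.99 to 14.2), 6.94 times for *ift-74*, 4.37 times for *dyf-6* (1.99 to 10.9), 3.38 times for *che-13* (2.05 to 5.80) and 2.94 times for *dyf-1* (2.58 to 3.35). *ift-81* was 5.83-fold higher there if its 0 counts in mutant replicate 1 are set to the floor, with a counting interval from 4.24 upward. *dyf-11* gave no measurable ratio. Over all tested genes mutant replicate 2 was the higher library for 55.7%, and over the 6504 tested genes under 1 CPM in wild type for 72.3%. The library difference therefore reached well beyond these genes, and its part in the differences between strains was not tested.

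**Figure D3:**
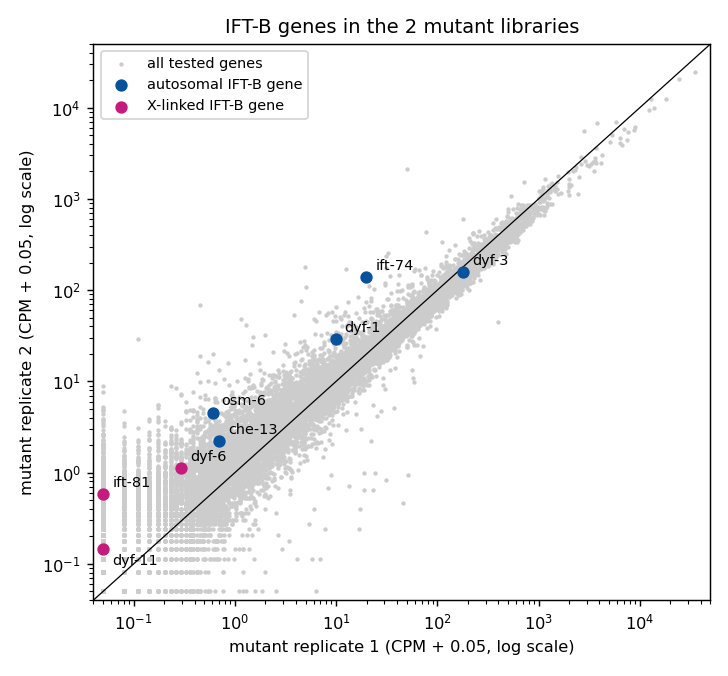
Level of every tested gene in mutant replicate 1 against mutant replicate 2, in CPM plus 0.05 on log axes, with the autosomal and the X-linked IFT-B genes in colour and the line of equal levels. dyf-3 lies by the line at 178.8 and 156.8 CPM, ift-74 lies far above it at 19.8 and 137.7 CPM, and the weak genes of the list lie above it as much of the cloud at low levels does.

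Chromosome was not used to choose the genes, although the split by chromosome was known from earlier results of these data. The 5 autosomal genes had log2 fold changes from 1.87 to 7.62, with a median of 3.42, and 3 of the 5 were called higher. The 3 X-linked genes had a median of -0.86 and none was called (0 at an unadjusted p under 0.05). Without mutant replicate 1 the median of the X-linked genes was 0.20. All tested autosomal genes had a median of -0.05 over 13135 genes, of which 621 were called higher and 85 lower. All tested X-linked genes had a median of -1.06 over 1979 genes, of which 50 were called higher and 136 lower. Of genes that, like most of the list, were under 1 CPM in wild type, the 5465 autosomal ones had a median of 0.22 and the 954 X-linked ones a median of -1.33. Of these, 251 and 2 were called higher, and 0 of either were called lower. The median of the 3 X-linked IFT-B genes thus lay near that of all tested X-linked genes, with single values from -2.06 to 0.43. The autosomal IFT-B genes lay above the autosomal genes at large, and both are descriptions without a test. *dyf-3* and *ift-74*, whose high mutant values led to the list, are both autosomal, so part of the autosomal height followed from that choice. The other autosomal genes, *dyf-1*, *osm-6* and *che-13*, had log2 fold changes of 3.42, 2.32 and 1.87. Without mutant replicate 2 these were 2.44, 0.14 and 0.76.

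Grouped by position in the complex, the 5 core genes *dyf-1*, *dyf-6*, *ift-74*, *ift-81* and *osm-6* had a median log2 fold change of 2.32, with 2 called higher. The 3 peripheral genes *che-13*, *dyf-3* and *dyf-11* had a median of 1.87, with 1 called higher. Over all tested genes 4.43% were called higher. Members of each arm were found among the called genes and among the genes that overlapped or fell below wild type. The differences thus varied within either arm. The list was chosen after the core gene *ift-74* and the peripheral gene *dyf-3* had been seen high. A call in each arm followed from that choice.

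To compare genes with each other, CPM were divided by the transcript length in kilobases. In wild type the order of these levels was *dyf-3*, *dyf-1*, *osm-6*, *dyf-6*, *che-13*, *ift-81*, *ift-74* and *dyf-11*, from 2.78 ± 0.642 to 0.121 ± 0.0267 CPM per kb (SD, n = 2). *dyf-3* and *dyf-1* (0.578 ± 0.155) stood apart from each other and from the rest, the neighbours from *osm-6* to *ift-81* overlapped between libraries, and the last 2, *ift-74* and *dyf-11*, lay apart by margins of a few counts only. In the mutant the order was *dyf-3*, *ift-74*, *dyf-1*, *osm-6*, *che-13*, *dyf-6*, *ift-81* and *dyf-11*, from 120.5 ± 11.2 to 0.0276 ± 0.0390 CPM per kb. Only *dyf-3* stood clear of its neighbour there by a wide margin, since *ift-74*, at 30.5 ± 32.3, overlapped *dyf-1*, at 6.21 ± 4.32, and each gene from *osm-6* on overlapped the next. The lower library of *dyf-1*, at 3.15, lay just above the higher one of *osm-6*, at 2.99. *ift-74* moved from the seventh place to the second.

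The share of *dyf-3* in the summed level per kb of the 8 genes was 60.9% and 56.1% in the wild-type libraries, 91.6% in mutant replicate 1 and 62.3% in mutant replicate 2. It stood apart from wild type in mutant replicate 1 alone by a wide margin. The partners *ift-74* and *ift-81*, whose products bind each other, stood at 0.159 and 0.166 CPM per kb in wild-type replicate 1 and at 0.148 and 0.263 in wild-type replicate 2. In mutant replicate 1 they stood at 7.68 and 0, and in mutant replicate 2 at 53.3 and 0.237 CPM per kb. Thus *ift-74* lay above both wild-type libraries in each mutant library, and *ift-81* in neither.

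Further IFT-B genes outside the list followed the same range of patterns. *dyf-13*, the worm gene for IFT56 on chromosome II, went from 23 and 15 counts to 517 and 977, and was called higher with a log2 fold change of 5.14 (SE 0.54). *ift-20*, whose product binds IFT54, had 2 and 6 counts against 16 and 58, a log2 fold change of 3.02 (SE 1.14) that did not pass. *osm-1*, the X-linked gene for IFT172 at the end of the peripheral arm, was the best detected IFT-B gene of wild type, with 1073 and 507 counts against 325 and 589. Its strains overlapped and its log2 fold change was -0.93 (SE 0.43), not called.

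The regulator of ciliary genes was higher as well. *daf-19*, on chromosome II, went from 508 and 474 counts to 1925 and 2998, with no overlap, and was called higher with a log2 fold change of 2.18 (SE 0.27). Its counts are summed over isoforms, so the levels of the isoform that acts in ciliated cells are not known from these data.

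The other cilium genes, taken from lists drawn up with earlier results of these data known, showed a similar mixture. Of the 34 tested genes of 6 lists, *dyf-13*, *ift-20* and *osm-1* among them, 8 were called higher and 0 lower (18 and 0 at an unadjusted p under 0.05; 15 and 0 with DESeq2), and their median log2 fold change was 2.18. Over all tested genes the shares called were 4.43% and 1.46%, with 12.3% and 12.4% at the unadjusted p and 8.05% and 3.42% with DESeq2. The 8 were *dyf-13*, the kinesin gene *osm-3* (2.97, SE 0.34), the dynein-2 heavy chain gene *che-3* (4.32, SE 0.73), the BBSome gene *bbs-2* (from 1 and 2 counts to 220 and 552), the transition zone genes *mks-5* (4.44, SE 0.74), *nphp-1* (4.96, SE 1.02) and *nphp-4* (3.94, SE 0.60), and *daf-19*. Without mutant replicate 2, 3 of the 34 were called, and without any other single library none was. Mutant replicate 2 was the higher mutant library for 30 of the 34. None of the 4 tested genes of complex A, which works beside IFT-B, was called in edgeR's test (2 were higher at an unadjusted p under 0.05, and 2 with DESeq2). Among them *che-11*, the worm IFT140 gene, went from 2 and 1 counts to 18 and 639, so mutant replicate 2 carried nearly all of its reads.

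Genes that mark the cells in which cilia are known to sit were read beside these results. Of 12 tested signalling genes of ciliated neurons, 1 was called higher and 0 lower. The called gene was the TRPV channel gene *ocr-2* (from 4 and 17 counts to 187 and 426). At an unadjusted p under 0.05, 2 were higher and 2 lower, and with DESeq2 1 was called higher and 0 lower. Over all tested genes the shares were 4.43% and 1.46%, with 12.3% and 12.4% at the unadjusted p and 8.05% and 3.42% with DESeq2. The median log2 fold change of the 12 genes was 0.95. Their summed level was 6.25 to 8.33 CPM in wild type and 10.3 to 23.9 CPM in the mutant, and that of the 8 IFT-B genes was 7.15 to 9.11 and 210.0 to 331.8 CPM. The IFT-B sum is carried by *dyf-3* and *ift-74*, whose high mutant values led to the list, and the other 6 genes summed to 3.52 to 4.198 CPM in wild type and 11.3 to 37.3 CPM in the mutant. The single genes went either way, with 7 of 12 above 0. *tax-2* and *tax-4*, the subunits of a sensory channel, had 13 and 13 counts against 27 and 106, and 3 and 3 against 2 and 60. The TRPV channel gene *osm-9* had 1 and 0 counts against 14 and 9, and the transcription factor gene *che-1* had 4 and 4 against 9 and 28. *odr-1* and *daf-11*, guanylate cyclase genes, and *odr-3*, a G protein gene, were at 0 counts in mutant replicate 1 and had 15, 6 and 4 counts in mutant replicate 2, against 44 and 82, 12 and 18, and 11 and 20 in wild type.

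Markers of other cells also moved between the libraries, though not every list separated the strains. Body wall muscle markers summed to 247.2 to 447.5 CPM in wild type and 247.4 to 333.7 CPM in the mutant. Somatic gonad markers summed to 203.0 to 268.8 and 188.6 to 231.1 CPM, and hypodermis markers to 3.48 to 5.37 and 7.38 to 7.75 CPM. Of these lists 0 of 8, 0 of 9 and 0 of 5 were called higher (1 hypodermis gene with DESeq2). *plc-1*, of the somatic gonad, was the only one called lower. Different hypodermis genes carried the mutant sums of that list. *col-19* had 26 and 32 counts against 205 and 0, and *sqt-3* had 9 and 12 against 20 and 186. The median log2 fold change of the 5 hypodermis genes was -1.06. Pan-neuronal markers summed to 80.8 to 82.5 CPM in wild type and 101.1 to 106.7 CPM in the mutant. Of the 14, 2 were called higher and 0 lower (5 and 1 at an unadjusted p under 0.05, 4 and 1 with DESeq2), where 4.43% and 1.46% of all tested genes were. The called genes, *unc-13* (mean 2.32 to 16.1 CPM) and *unc-104* (7.36 to 22.1 CPM), carried the rise. Both mutant libraries lay above both wild-type libraries for 6 of the 14 and below for 4, and for 24.1% and 32.7% of all tested genes. Those below were *snb-1* (45.7 to 35.7 CPM), *ric-4* (3.32 to 1.94), *unc-10* (3.17 to 1.53) and *unc-18* (11.8 to 3.99). Glia markers summed to 7.53 to 8.94 CPM in wild type and 28.8 to 45.3 CPM in the mutant, mostly through *ptr-10*, the 1 of 6 that was called, while the glia gene *fig-1* had 0 counts in mutant replicate 1. Sperm genes summed to 8.96 to 27.4 CPM in wild type and 84.6 to 120.5 CPM in the mutant, mostly through *spe-41* (672 and 161 counts against 2521 and 3255), with sums of 3.35 to 4.44 and 7.44 to 17.98 CPM without it and with 0 of 9 called (3 higher and 1 lower at an unadjusted p under 0.05 in edgeR's test, and 3 higher with DESeq2). Intestine markers went the opposite way, from 205.0 and 1996 CPM in wild-type replicates 1 and 2 to 10.9 and 14.9 CPM in the mutant. The yolk genes *vit-2* and *vit-6*, which made up nearly all of the wild-type sum, were called lower (5 of 9 with DESeq2). Both mutant libraries were below both wild-type libraries for 7 of the 9, and for 32.7% of all tested genes. They were above for 2, and for 24.1% of all tested genes. These were *ges-1* (5 and 19 counts against 114 and 43) and *elt-2* (2 and 1 against 3 and 6). The part of these differences in the levels of the IFT-B genes was not tested.

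**Figure D4:**
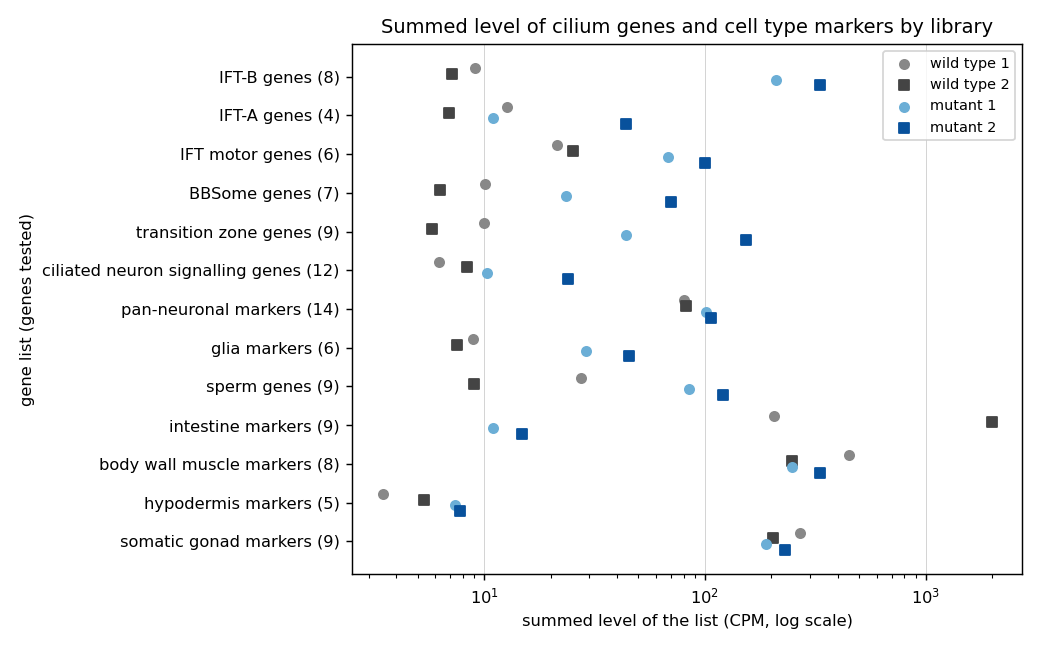
Summed CPM of the tested genes of each list in each of the 4 libraries, on a log axis, with the number of genes in brackets. The IFT-B sum is 7.15 to 9.11 CPM in wild type and 210.0 to 331.8 CPM in the mutant, most of it from dyf-3 and ift-74, that of ciliated neuron signalling genes is 6.25 to 8.33 and 10.3 to 23.9 CPM, and intestine markers are lower in the mutant.

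Neighbouring genes were examined because reads of overlapping genes can be shared, and the strand setting of the counts is not given in the sources used here. No tested gene overlapped *dyf-3* or *ift-74*. Next to *dyf-3*, *pdhb-1* had a log2 fold change of 0.02 (SE 0.29), and on either side of *ift-74*, H43E16.1 had one of 0.84 (SE 1.17; 8 and 13 counts against 3 and 39) and *gyf-1* one of 0.33 (SE 0.37), none of them called. *dyf-1* has *cil-7* on the same strand 93 bases downstream of its end, with 12 and 2 counts against 18 and 91, which was not called. *osm-6* overlaps R31.2 on the other strand (1709 and 1822 counts against 1891 and 1941), and *ift-81* overlaps *ags-3* on the other strand (298 and 388 against 142 and 245). The end of *dyf-6* overlaps the start of *rme-4* on the same strand (3126 and 2084 against 851 and 1769), and *che-13* overlaps the opposite-strand genes F59C6.8 and F59C6.16, which have few counts themselves. *ift-20* overlaps *spe-5* on the other strand, which has 2564 to 4193 counts per library. Of the neighbours that do not overlap, 4 were called: *tag-68* beside *che-13* (higher, 3.16, SE 0.37), *sma-1* on the lower side of *osm-6* (higher, 1.91, SE 0.21), *vps-41* on that of *ift-81* (higher, 1.57, SE 0.26) and *trap-2*, 283 bases from *dyf-11* (lower, -3.06, SE 0.30). For these weak IFT-B genes a part of the few reads may belong to the neighbour, and their values are uncertain to that degree.

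The genes whose levels over the 4 libraries ran most like those of *dyf-3* and *ift-74* were found by Euclidean distance between centred log2(CPM + 0.5) values, over 9233 genes that averaged 1 CPM or more. Those nearest to *dyf-3* were *gcy-19*, a guanylate cyclase gene, at a distance of 0.161 (88 and 61 counts against 4405 and 3984), *glit-1* at 0.384 (248 and 261 against 12063 and 9691) and *dhc-4*, a dynein heavy chain gene, at 0.531 (33 and 15 against 1492 and 2051). *glit-1* lies on chromosome X. All 3 share with *dyf-3* mutant libraries of similar height. Those nearest to *ift-74* were W01C9.1 at 0.482 (1 and 0 against 317 and 1666), W01C9.2 at 0.664 (26 and 17 against 989 and 3778) and F47D12.7 at 1.02 (0 and 5 against 194 and 1529), each of them several times higher in mutant replicate 2 than in mutant replicate 1. With 4 libraries that share their depth and preparation, such likeness is a description of these libraries only.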

How the data were processed

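Polyadenylated RNA of 4 gonad samples was sequenced in 50-base reads with a stranded kit. Per the submitters' processing notes, TopHat2 2.0.13, HTSeq 0.6.1, edgeR 3.10.5 and WBcel235 were used. The authors deposited whole-number counts per gene without normalization, and these counts alone were analysed. The deposited normalized counts, log2 fold changes and p-values of the authors' own comparison were not used.

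The quasi-likelihood test of edgeR 4.0.16 (R 4.3.3) was run after TMM normalization on the 15261 genes with 1 count or more, with a term for strain alone and Benjamini-Hochberg adjustment. No p was adjusted over a list. Of the 8 genes, 7 passed filterByExpr and *dyf-11* did not. Intervals are exact and conditional on the summed counts (scipy 1.17.1). A gene at or under 3 counts was treated as at the floor (0.0919 to 0.105 CPM). Positions and transcript lengths came from Ensembl release 115 of WBcel235, with a position for 15134 tested genes.

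The members and lists were chosen with earlier results of these data known. Named were all members, further IFT-B genes, *daf-19*, list genes behind counts of 5 or fewer, overlapping or adjoining genes, and the 3 nearest profiles of *dyf-3* and *ift-74*. The other called cilium genes, *che-11*, *fig-1*, *spe-41*, *col-19*, *sqt-3*, *rme-2* and the ciliated neuron genes were chosen after their values were seen. Alternatives were RLE normalization, DESeq2 1.42.0, filterByExpr, legacy and classic edgeR tests, a replicate block, the adjusted p alone, and leaving out each library.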

Additional observations from a re-analysis of the deposited data

How the results depend on the processing

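The 3 calls among the IFT-B genes were also made with RLE normalization, DESeq2, filterByExpr, the legacy quasi-likelihood method and the classic exact test. Over all genes, DESeq2 called 1228 higher and 522 lower and the classic exact test 1086 and 510, against 676 and 223. The replicate numbers come from the sample titles, and the correlation of same-numbered deviations was -0.12 over 9237 genes. With 2 libraries per strain, that value cannot show whether or not the replicates were paired. With a replicate block 372 genes were called higher and 91 lower, and 2 IFT-B genes, with *dyf-1* not called (edgeR, Benjamini-Hochberg adjusted p = 0.0656). A crossed pairing, chosen after seeing the data, called 640 and 216 genes and 3 IFT-B genes. With 1 library left out, the lone sample of a strain is assumed to vary like the other strain: 0 to 101 genes were called higher and 0 to 17 lower, and 0 to 2 IFT-B genes. The median log2 fold change of the list then ranged from 0.45, without mutant replicate 2, to 2.88, that of the X-linked genes from -5.67 to 0.20, and that of the autosomal genes from 2.44 to 4.05. The values of -5.67 and -6.88 are fitted against 0 counts and are no measured folds. *ift-81* changed sign without mutant replicate 1 (range -6.88 to 0.20) and *dyf-6* without mutant replicate 2 (range -0.97 to 1.19). Of 87 alternative log2 fold changes of the 8 genes, 75 kept direction and call, 10 lost the call and 2 changed sign. The lost calls were all of *dyf-3*, *ift-74* and *dyf-1*, nearly all of them with a library left out. For the genes that were not called at first, keeping the call means staying uncalled. The planned search of promoters for the DAF-19 motif was not run. Depth limits *dyf-11*, *ift-81*, *dyf-6*, *che-13* and *osm-6*, which had 5 to 18 counts in each wild-type library. *ift-74* had 12 and 11 wild-type counts, so the size of its fold also rests on few wild-type reads, though its mutant counts were 648 and 4372.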
